A study of Mus musculus with 6 samples.

Results

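The 9 genes described here handle retinoic acid in the cell: Stra6 (uptake of its precursor), Aldh1a2 (synthesis), Dhrs3 (return of the intermediate to retinol), Crabp1 and Crabp2 (binding), Cyp26a1 (breakdown) and the receptor genes Rara, Rarb and Rarg. All probe sets annotated to 1 of these genes and to no other were taken, which gave 10 of the 45101 probe sets on the array, with a pair for Rarg and a single probe set for each of the other 8 genes. Expression was measured in embryoid bodies, clusters of mouse embryonic stem cells left to differentiate together, on 6 Affymetrix arrays that cover the mouse genome. Induced embryoid bodies of the Hoxb4i line received doxycycline at 2 µg/ml for 48 hours from day 4, which switches on a tet-on HOXB4 cassette, and uninduced embryoid bodies of the same line received none; both were harvested on day 6. The 3 biological replicates are named experiments A, B and C, and every experiment gave 1 induced and 1 uninduced array. All 6 samples carry the cassette and come from the same stem cell line, and doxycycline on cells without the cassette is not among them, so HOXB4 and doxycycline cannot be told apart.

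Retinoic acid is made from vitamin A: retinol enters the cell, is oxidised to retinaldehyde and then to retinoic acid, which binds nuclear receptors that pair with retinoid X receptors on DNA. In the embryo it patterns the hindbrain, spinal cord, somites and heart, and in cultured embryoid bodies added retinoic acid is a standard way to obtain neural cells. Cyp26a1 and Rarb are textbook direct targets of the receptors, so their transcripts are widely read as a report of retinoic acid in a tissue. Stra6 and Dhrs3 are also known to respond to it.

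The receptor pairs bind direct repeats of a short letter group, and the classic form has a spacer of 5 bases. A promoter of Rarb and a promoter of Cyp26a1 are shown because, of the members searched, these genes have letters of that form close to a transcription start. RefSeq promoter windows, from 250 bases before to 50 bases after a start (assembly GRCm38.p6), were searched on both strands for GGTCANNNNNNGGTCA, GGTCANNNNNNGTTCA, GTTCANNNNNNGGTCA and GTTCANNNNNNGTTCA, patterns that cannot overlap at the same position. Of each 6-base unit of the repeat 5 letters were matched, so the letters N hold the 5-base spacer and the first base of the next unit. A match was found in 2 of the 17 windows of 8 members, against 81 of all 32851 windows (0.247%). Crabp2 had no window and was not searched. Rarb and Cyp26a1 are the members named above as direct targets of the receptors, so this count is no test of the members as a set. The match stands 52 to 37 bases before a start of Rarb, on the strand of the gene, and 32 to 17 bases before a start of Cyp26a1, on the opposite strand. Both starts lie inside the annotated gene, which has its 5′ end at 17082331 for Rarb and at 37697738 for Cyp26a1. The 250 bases before each start follow, 5′ to 3′ on the strand of the gene, with the matched letters in capitals; Rarb is at chr14:16575477-16575726 on the minus strand and Cyp26a1 at chr19:37697558-37697807 on the plus strand.
Rarb: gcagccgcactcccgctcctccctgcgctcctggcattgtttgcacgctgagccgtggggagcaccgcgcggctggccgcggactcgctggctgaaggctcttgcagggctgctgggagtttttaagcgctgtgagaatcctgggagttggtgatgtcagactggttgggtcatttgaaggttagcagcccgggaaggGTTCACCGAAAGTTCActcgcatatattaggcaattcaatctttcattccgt
Cyp26a1: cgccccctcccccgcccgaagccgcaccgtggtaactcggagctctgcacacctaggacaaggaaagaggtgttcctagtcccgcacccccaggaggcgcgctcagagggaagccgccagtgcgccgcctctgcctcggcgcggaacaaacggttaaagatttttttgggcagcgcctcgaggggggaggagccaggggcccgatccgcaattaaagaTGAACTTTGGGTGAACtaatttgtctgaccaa
The matched stretches read the same pattern, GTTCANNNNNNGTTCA, once for each strand. A match of letters is a description of the sequence and does not show binding.

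The values are MAS5 signals, 1 per probe set and array, which were deposited on a linear scale and had been scaled so that the trimmed mean was 500 on every array; the median signal lay between 92.0 and 108.6. The uninduced array of A stood apart, with a 3′ to 5′ control ratio of 2.88 for Actb against 1.26 to 1.48 on the other 5 arrays. Hoxb4 had log2 fold changes of 0.57 and 0.86 with doxycycline on its probe sets and was higher in 3 of 3 experiments on both, but neither change passed the threshold (limma, adjusted p = 0.99996 for both, and 0.93 for both with the experiment letter as a replicate block). Differences are given as log2 fold changes of the signal plus an offset of 18.8, so that at low signal they understate the change. A mean signal of at least 60.5 over the 6 arrays was needed to enter a test, which 27022 probe sets had; all 10 retinoic acid probe sets did, but Stra6 reached that signal on 4, Aldh1a2 on 5 and Dhrs3 on 5 of the 6 arrays. Experiments were compared with limma, with doxycycline as a term of the model, and a call means an adjusted p under 0.05. Each experiment has 2 arrays, and nothing in the labels says how far their cultures were separate, so these p-values rest on the spread within experiments, which includes any doxycycline response that differs between them.

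The binding protein genes separated C from the other experiments. Crabp1 encodes a cytosolic protein that holds retinoic acid and is common in the developing hindbrain and neural crest. Its signal in induced and uninduced embryoid bodies was 31325 and 17450.3 in C, 2127 and 2448 in B, and 3522 and 1331 in A. Both arrays of C stood above the other 4 arrays, and the arrays of B lay within the range of those of A. The log2 fold change was 3.35 for C over B (95% interval 2.61 to 4.09, adjusted p = 0.000744) and 3.42 for C over A (2.68 to 4.16, adjusted p = 0.00262), and B did not differ from A beyond the spread, at 0.07 (-0.67 to 0.81, adjusted p = 0.91). With arrays left out singly, B over A ranged from -0.59 to 0.73, and it was 0.61 without the induced array of A.

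Crabp2, whose protein carries retinoic acid to the receptors in the nucleus, separated all 3 experiments. Its signal with and without doxycycline was 21769 and 13215 in C, 1362 and 1361 in B, and 7343 and 5310.1 in A. The pairs did not overlap, with C highest and B lowest. C over B stood at a log2 fold change of 3.62 (3.18 to 4.06, adjusted p = 7.78e-05), C over A at 1.44 (0.996 to 1.88, adjusted p = 0.00969) and B over A at -2.18 (-2.63 to -1.74, adjusted p = 0.00333). Leaving out the induced array of C lost the call for C over A, at 1.20 (adjusted p = 0.0767). The binding proteins thus shared a high level in C and parted in A, where Crabp2 but not Crabp1 stood above B.

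Cyp26a1, the enzyme that clears retinoic acid by hydroxylation, ran in another order. Its signal with and without doxycycline was 114.1 and 224.9 in C, 350.1 and 459.4 in B, and 1839 and 1095 in A. The pairs did not overlap, and A was highest and C lowest. On the log2 scale C over A was -3.0 (-3.86 to -2.14, adjusted p = 0.00768) and B over A -1.78 (-2.64 to -0.91, adjusted p = 0.0437). For C over B it was -1.22 (-2.09 to -0.36, adjusted p = 0.0864), short of the threshold. B over A missed the threshold when the induced array of B was left out, at -1.62 (adjusted p = 0.156), and when its uninduced array was, at -1.93 (adjusted p = 0.187). The call was also lost with an offset of 1 (adjusted p = 0.0577), without the filter (0.0588), with a filter at the 60th percentile (0.0516) and after quantile normalization (0.0658). Leaving out an array of A cannot change the size of C over B in this model, since both arrays of B and of C remain. In C Cyp26a1 thus had its lowest signals and the binding genes their highest. Cyp26b1, another breakdown enzyme given below, also had its highest signals in C.

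Rarb, the receptor gene with a promoter shown above, also had its lowest level in C. Its signal with and without doxycycline was 155.3 and 85.9 in C, 268.6 and 339.7 in B, and 352.5 and 383.0 in A. Both arrays of C lay below the other 4. Its log2 fold change came to -1.52 for C over A (-2.30 to -0.74, adjusted p = 0.0409), -1.25 for C over B (-2.03 to -0.47, adjusted p = 0.0583) and -0.27 for B over A (-1.05 to 0.51, adjusted p = 0.665). C over A was no longer called when either array of C was left out, at -1.99 without the induced (adjusted p = 0.0603) and -1.04 without the uninduced one (adjusted p = 0.323). The call for C over A was also lost without the filter (adjusted p = 0.0676). C over B was called after quantile normalization (adjusted p = 0.0442) and without the doxycycline term (0.0371). The genes with the matched promoter letters, Rarb and Cyp26a1, were therefore both lower in C than in A, and for B Cyp26a1 alone passed the threshold against A; whether they differ from each other in this was not tested.

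Rara, the most widely expressed of the receptor genes in the embryo, had signals of 417.0 and 216.4 with and without doxycycline in C, 281.3 and 237.1 in B, and 190.6 and 96.8 in A. The arrays of C and B overlapped, and both arrays of A lay below the other 4. For C over A the estimate was 1.04 (0.33 to 1.75, adjusted p = 0.0788) and for B over A 0.83 (0.12 to 1.55, adjusted p = 0.158), neither past the threshold. With the induced array of A left out, the estimates were 1.19 for C over A and 0.98 for B over A.

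The probe sets of Rarg, the receptor gene of the tail bud and cartilage precursors, differed from each other. On the dimmer probe set the signal with and without doxycycline was 62.8 and 99.3 in C, 280.8 and 274.6 in B, and 201.4 and 115.4 in A, so that the pairs did not overlap, with B highest and C lowest. C over B was -1.59 on the log2 scale (-2.48 to -0.71, adjusted p = 0.039). Leaving out an array lost that call in 3 cases, at -1.62 without induced B (adjusted p = 0.206), -1.56 without uninduced B (adjusted p = 0.205) and -1.14 without induced C (adjusted p = 0.313). It was also lost without the filter on dim probe sets (adjusted p = 0.0759). B over A was 0.79 (limma, adjusted p = 0.256) and C over A -0.81 (adjusted p = 0.214), neither past the threshold. B over A was 1.27 without induced A, and C over A was -1.29 without uninduced A. On the brighter probe set the signal was 340.9 and 340.7 in C, 596.5 and 375.1 in B, and 376.3 and 562.1 in A, a range of 1.75-fold that was the narrowest of the 10 probe sets. There C over B was -0.45 (-1.19 to 0.28, adjusted p = 0.442). C over A was -0.41 (adjusted p = 0.432), and -0.85 without induced A.

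Stra6, the membrane receptor that takes up retinol from its plasma carrier RBP4, was near the bottom of the scale in B. Its signal with and without doxycycline was 236.6 and 140.7 in C, 8.70 and 7.40 in B, and 191.9 and 77.2 in A. The values in B lie below the offset of 18.8, where MAS5 signals have little precision, and the files hold no detection calls. The arrays of C and A overlapped, at 0.51 for C over A (-0.54 to 1.55, adjusted p = 0.5). C over B was 2.91 (1.87 to 3.95, adjusted p = 0.0065) and B over A -2.41 (-3.45 to -1.36, adjusted p = 0.0321), sizes that the offset sets because Stra6 passed the filter through A and C. With offsets of 1 and 50, C over B was 4.35 and 2.01 and B over A was -3.77 and -1.60, all called. B over A was not called at -1.99 without induced B (adjusted p = 0.131) or at -2.82 without uninduced B (adjusted p = 0.068), and the F test over the experiments missed the threshold without induced B (adjusted p = 0.0575). B over A was also not called without the filter (adjusted p = 0.0547).

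Aldh1a2, known as RALDH2 and the main retinoic acid synthesising enzyme of the early embryo, differed within experiments more than between them. Its signal with and without doxycycline was 146.7 and 212.4 in C, 126.5 and 16.1 in B, and 622.5 and 63.9 in A. The pairs overlapped, and no contrast of experiments passed the threshold: 1.46 for C over B (-0.19 to 3.11, adjusted p = 0.262), -0.24 for C over A (-1.88 to 1.41, adjusted p = 0.862) and -1.69 for B over A (-3.34 to -0.04, adjusted p = 0.2). C over B was 2.95 without induced C and -0.037 without uninduced C. B over A was -2.78 without the uninduced array of A.

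Dhrs3, which turns retinaldehyde back into retinol and so limits synthesis, had signals of 58.5 and 106.2 with and without doxycycline in C, 224.9 and 243.6 in B, and 75.8 and 146.5 in A. Both arrays of B were above the other 4. Its estimates were -1.36 for C over B (-2.19 to -0.53, adjusted p = 0.0535) and 1.02 for B over A (0.19 to 1.85, adjusted p = 0.146), neither past the threshold. C over B was called at -1.13 with an offset of 50 (adjusted p = 0.0462) and at -1.53 after quantile normalization (adjusted p = 0.0342).

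**Figure D1:**
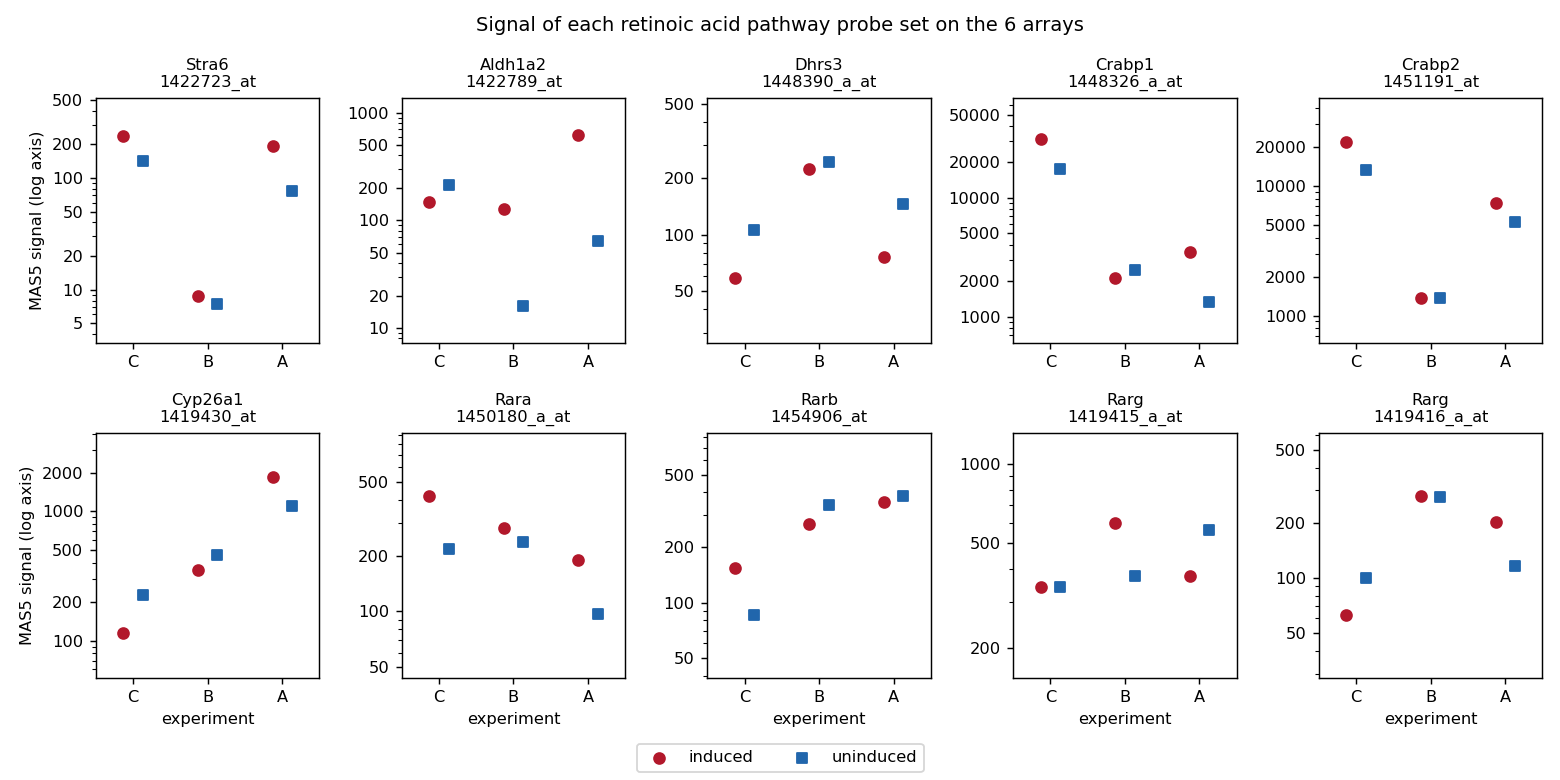
MAS5 signal (log axis) of the 10 probe sets in experiments C, B and A, with a circle for the induced and a square for the uninduced array. Crabp1 and Crabp2 stand highest in C, Cyp26a1 highest in A, Rarb lowest in C and Stra6 lowest in B, while the symbols of Aldh1a2 lie far apart within A and within B.

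Over the 10 probe sets, an F test over the experiments (limma) called 5, those of Crabp1, Crabp2, Cyp26a1, Rarb and Stra6, while it called 11.6% of the 27022 probe sets tested. Rarb left those 5 when any array of B or C was left out, at adjusted p-values of 0.0509 to 0.326, and also with an offset of 1 (0.0502), without the filter (0.0735), with the filter at the 60th percentile (0.0538) and without the intensity trend (0.0976). The pairwise contrasts called 4 for C over B (9.59% of all probe sets), 3 of them higher (background 4.33%) and 1 lower (5.26%). They called 4 for C over A (6.82%), 2 higher (2.52%) and 2 lower (4.29%), and 3 for B over A (4% of all), with 0 higher (2.09%) and 3 lower (1.91%). Stra6 is counted by the F test, for C over B and for B over A. It passed the filter through A and C, so these calls of Stra6 are no independent support. The median log2 fold change of the 10 was -0.12 for C over B, -0.29 for C over A and -0.11 for B over A, against 0.07, -0.01 and -0.08 over all tested probe sets, so the pathway did not move as a block. The experiment accounted for 91.7% to 97.3% of the sum of squares for Crabp1, Crabp2, Cyp26a1 and Stra6, for 88.9% for Rarb, and for 33.8% for Aldh1a2, against a median of 65.7% over all tested probe sets.

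Those counts depend on how the spread is estimated. Without both arrays of A, C over B was called for 8 of the 10, all but Rara and the brighter probe set of Rarg, but then also for 30.3% of all probe sets. That fit has 1 residual degree of freedom per probe set and rests almost wholly on the spread shared across probe sets. The fit without the uninduced array of A also has 1. Leaving out an array of A raised the calls over all probe sets as well. Calls that members gained in this way are therefore not read as results about the members. Without the uninduced array of A the F test called 8 of the 10 and 32.4% of all, and the contrasts called 8 for C over B (30% of all), 5 for C over A (14.7%) and 4 for B over A (10.8%). Without the induced array of A the F test called all 10, and 13806 of the 27022 probe sets. When the moderation took no account of signal intensity, no call for C over A or B over A remained, at adjusted p-values of 0.0501 to 0.134, whereas Crabp1, Crabp2 and Stra6 were still called for C over B. Of these, Stra6 is near the floor in B and passed the filter through A and C.

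**Figure D2:**
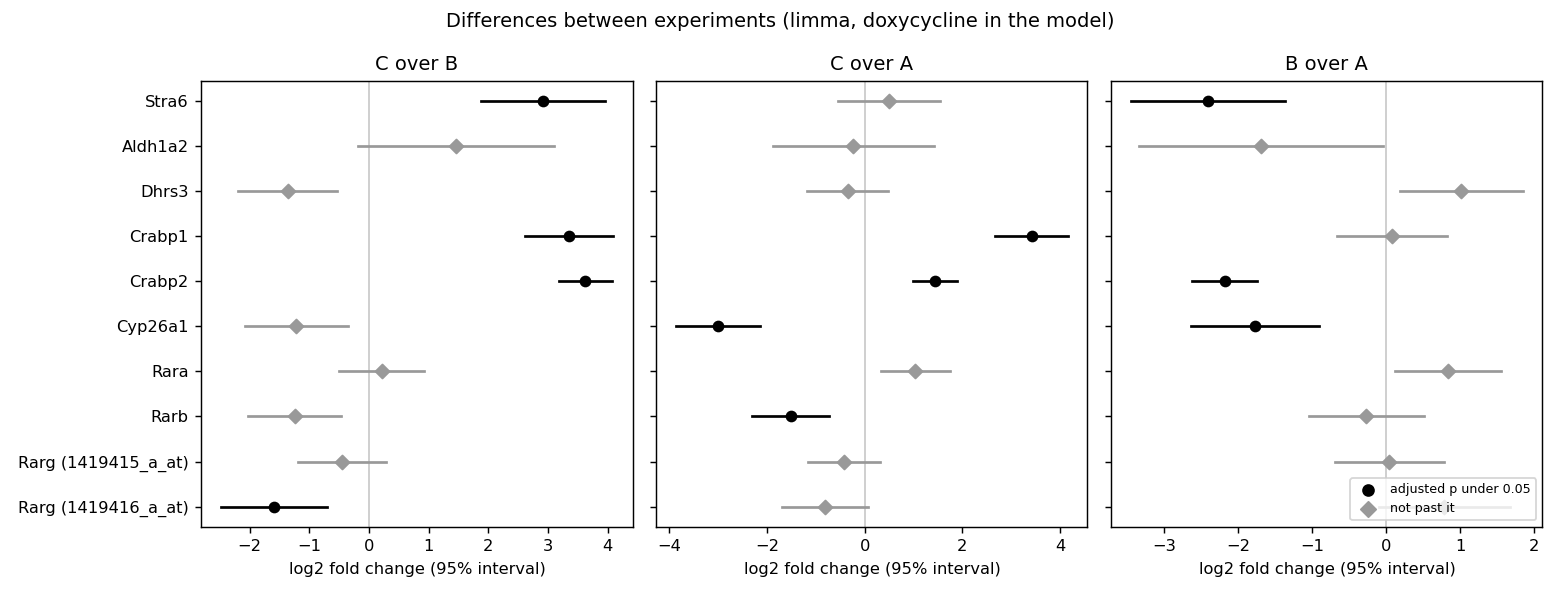
Log2 fold changes between experiments with 95% intervals for the 10 probe sets (limma), in panels for C over B, C over A and B over A, with black circles for an adjusted p under 0.05 and grey diamonds for the rest. Crabp1 and Crabp2 lie at 3.35 and 3.62 for C over B, and Cyp26a1 at -3.0 for C over A.

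The study's own comparison, induced against uninduced embryoid bodies, called no retinoic acid gene. Limma called 0 of the 10 probe sets and 0 of all 27022 (0%), without and with the experiment letter as a replicate block; at an unadjusted p under 0.05 there were 138 of all probe sets (0.511%) and 0 of the 10. The log2 fold change lay above 0 for 8 and below 0 for 2 of the 10, with a median of 0.25 against 0.01 over all probe sets. With the replicate block, which takes out the differences between experiments, 4 of the 10 had an unadjusted p under 0.05, as did 3.94% of all probe sets. They were Aldh1a2, Crabp1, Crabp2 and Rara, with limma p-values of 0.0323, 0.0325, 0.0358 and 0.0311 at log2 fold changes of 1.51, 0.68, 0.40 and 0.66, and an adjusted p of 0.93 for each. Their unadjusted 95% intervals with the block were 0.16 to 2.86, 0.07 to 1.28, 0.03 to 0.76 and 0.08 to 1.24.

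Aldh1a2 had the largest of these estimates. It averaged 298.6 ± 280.7 in induced and 97.5 ± 102.4 in uninduced embryoid bodies (SD, n = 3 each). The estimate was 1.51 on the log2 scale, between -0.35 and 3.37 without the replicate block (limma, adjusted p = 0.99996). Experiment A differed by 2.96 and B by 2.06, but C by -0.48, so that 2 experiments were higher and 1 lower with doxycycline. The uninduced signal in B, 16.1, lies below the offset, and the difference in B was 2.90 with an offset of 1 and 1.42 with an offset of 50. Without the uninduced array of A the estimate was 1.47 without its induced array 0.83 and without uninduced B 0.85, and no call was made in these cases. With 1 pair of arrays per experiment, whether the response differs between experiments cannot be tested.

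Rara was higher with doxycycline in 3 of 3 experiments, by 0.89 in C, 0.23 in B and 0.86 in A; it averaged 296.3 ± 113.9 in induced and 183.4 ± 75.7 in uninduced embryoid bodies (SD, n = 3 each). Stra6 and Crabp2 were also above 0 in 3 of 3, although Crabp2 by only 0.00094 in B and Stra6 by 0.07 in B, where it is near the floor. Dhrs3 was the single member lower in 3 of 3, at -0.69 in C, -0.11 in B and -0.81 in A, with an estimate of -0.54 (-1.73 to 0.66, adjusted p = 0.99996). Over all tested probe sets 12.8% were higher and 13.2% lower in 3 of 3 experiments.

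Cyp26a1 and Rarb, the reporters of retinoic acid, had no shared direction. Cyp26a1 differed by -0.87 in C, -0.37 in B and 0.74 in A, and Rarb by 0.73 in C, -0.32 in B and -0.11 in A. Their estimates were -0.17 (-2.36 to 2.02) and 0.10 (-1.20 to 1.40), and -0.88 to 0.53 and -0.54 to 0.74 with the replicate block, and these intervals give the size of change that the arrays leave possible. Differences of over 1 log2 unit between the arrays of an experiment were found for 3 of the 10 probe sets in A (Aldh1a2, Crabp1 and Stra6), 1 in B (Aldh1a2) and 0 in C, against 11.2%, 4.27% and 6.33% of all tested probe sets.

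**Figure D3:**
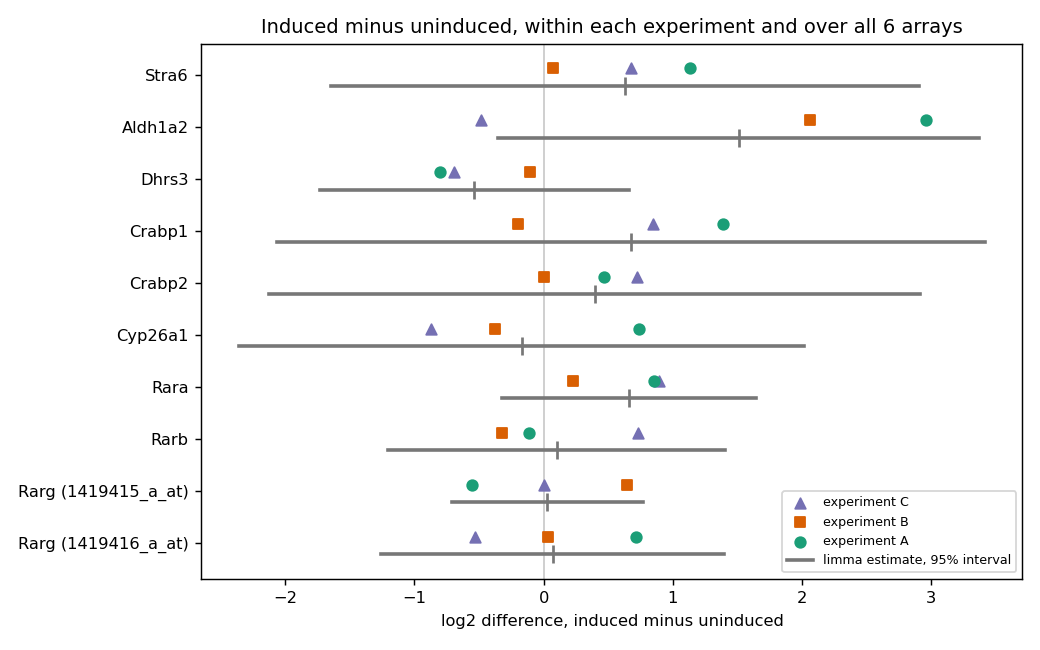
Log2 difference of induced minus uninduced embryoid bodies for the 10 probe sets, with a symbol for each experiment and, in grey, the limma estimate over the 6 arrays with its 95% interval. Every grey interval, from the fit without the experiment letter, includes 0, and Aldh1a2 lies at -0.48 in C, 2.06 in B and 2.96 in A. With the replicate block, not drawn here, the unadjusted intervals of Aldh1a2, Crabp1, Crabp2 and Rara excluded 0.

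Other genes of the pathway were read from lists, each gene other than the members through its brightest tested probe set; the F test over the experiments called 14% of all 12452 genes. Of 3 tested genes of retinoid transport, 2 were called. Rbp4, the plasma carrier of retinol, had signals of 305.1 and 322.5 in C, 3155 and 3830 in B, and 1257 and 1025 in A, with and without doxycycline, a log2 fold change of -3.39 for C over B (adjusted p = 0.000148). Ttr, which encodes the transthyretin that travels with RBP4, stood at -6.28 for C over B (adjusted p = 2.06e-05). Stra6, which takes up retinol from that carrier, ran the other way between C and B, as given above. Both carriers are also made by visceral endoderm, and Ttr is on the endoderm marker list below.

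Of 11 tested enzymes of retinoid oxidation and reduction other than the members, 1 was called, Rdh11, which reduces retinaldehyde, at -1.02 for C over B (adjusted p = 0.0388). Rdh10, the enzyme that makes retinaldehyde from retinol in the embryo, had signals of 1685 and 994.1 in C, 918.1 and 856.4 in B, and 1161 and 527.3 in A; it was higher with doxycycline in each experiment, at 0.65 over all (unadjusted p = 0.0813, adjusted p = 0.99996). Cyp26b1, the breakdown enzyme of hindbrain and limb, had 138.6 and 192.4 in C, 78.3 and 31.1 in B, and 8.0 and 13.7 in A. C over A was 2.63 on the log2 scale (adjusted p = 0.0315), against -3.0 for Cyp26a1, but both arrays of A lie below the offset, and the value was 3.84 with an offset of 1 and 1.81 with an offset of 50. It was among 2 of 3 breakdown enzymes called by the F test, with Cyp2s1, at -1.86 for C over B (adjusted p = 0.0216).

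Of 7 retinoid X receptors and genes of related nuclear receptor routes, 1 was called: Fabp5, which carries fatty acids and can carry retinoic acid to another receptor, at 0.77 for C over B (adjusted p = 0.00945). Rxra, Rxrb and Rxrg, the partners of the retinoic acid receptors, were not called. Of 13 coactivators and corepressors the F test called 1, or 3 when a gene was read as the mean over its probe sets, and C over B called 2, Nrip1 and Ajuba, a corepressor of the receptors (0.77, adjusted p = 0.0466). Nrip1 is a corepressor that is itself a known retinoic acid target, and it had 4005 and 2407 in C, 993.9 and 1010.3 in B, and 1014 and 1323 in A.

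Known targets of retinoic acid varied in both directions. The F test called 12 of 25. For C over B, 5 were higher (5.78% of all genes) and 5 lower (6.94%), with a median of -0.05 against 0.07 over all genes. Among the higher ones, Nr2f1, an orphan receptor gene of the neural plate, had 2373 and 1354 in C, 72.2 and 90.3 in B, and 723.5 and 992.8 in A, the same order as Crabp2. Among the lower ones, Tgm2, which encodes transglutaminase 2, had 71.2 and 106.6 in C, 701.7 and 877.3 in B, and 259.3 and 360.2 in A. For C over A, 2 were higher (2.77%) and 4 lower (4.64%), and for B over A 4 were higher (2.76%) and 2 lower (2.37%). Pdgfra, a mesoderm receptor gene, ran in the same order as Tgm2, at -2.47 for C over B (adjusted p = 0.00042). No gene of any of these lists was called for induced against uninduced embryoid bodies.

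The lineage markers of the embryoid bodies moved with the same experiments. Among all 12452 tested genes, C over B called 5.78% higher and 6.94% lower, and the F test called 14%. Of these genes 6919 lay above 0 for C over B and 5533 below. Of 9 tested neural markers, 9 lay above 0 for C over B and 8 were called, and their summed signal was 7943 and 8685 in C, 389.3 and 627.1 in B, and 4794 and 7048 in A, with and without doxycycline. Of 8 pluripotency markers, 8 lay above 0 for C over B and 4 were called, while the F test called 3, or 5 by the mean over probe sets. Their sums were 9904 and 9830 in C, 1393 and 1861 in B, and 4478 and 6181 in A; that sum includes Sox2, which neural cells also express. Both sums thus had the order of Crabp2, but the markers did not all share it. For C over A, 7 of 9 neural markers lay above 0 and 2 were called, while Otx2 and Pax6 lay below 0. Among 8 pluripotency markers, 7 lay above 0 for C over A and 1 was called. Paraxial and somitic markers were called for 1 of 6, Pax3, a gene that the dorsal neural tube also expresses, with sums of 1857 and 1921 in C, 405.5 and 351.5 in B, and 1585 and 1004 in A.

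Of 9 endoderm markers, 8 lay below 0 for C over B and 6 were called lower, against 6.94% of all genes. Their sums were 942.1 and 802.5 in C, 14643 and 15056 in B, and 9710 and 8035 in A. Ttr carries much of that sum: without it the sums were 782.4 and 711.3 in C, 3941 and 3946 in B, and 5496 and 4177 in A, so that A and not B was highest. The endoderm gene Foxa2 had the order of Cyp26a1, with 174.2 and 166.1 in C, 308.4 and 326.9 in B, and 1199 and 1021 in A. The list as a whole did not share that order. For B over A, 5 endoderm markers lay above 0 and 4 below, and 2 were called higher (2.76% of all genes) and 2 lower (2.37%). Of 9 cardiac markers, 9 lay below 0 for C over B and 6 were called, with sums of 899.2 and 1058 in C, 6433 and 7679 in B, and 4091 and 4648 in A. Of 8 endothelial markers, 8 lay below 0 and 7 were called, with sums of 371.9 and 849.3 in C, 6920 and 6546 in B, and 1679 and 637.5 in A, and of 9 blood markers 9 lay below 0 and 3 were called (5 by the mean over probe sets), with sums of 2120 and 2501 in C, 28270.3 and 38327 in B, and 4143 and 1139 in A. No marker was at exactly 0, but some defining ones lay at or below the offset: Myl7, a cardiac myosin gene, at 11.9 and 17.9 in C, Apoa1 at 9.80 and 6.60 in C, and the embryonic globin gene Hbb-y at 1.10 and 2.90 in A. Otx2, a forebrain gene, was at 2542 and 2964 in C and 2779.5 and 3861 in A, against 35.5 and 26.9 in B. In bulk samples, fewer cells of a type and less RNA per cell cannot be told apart, and the part of these lineages in the differences of the retinoic acid genes was not tested.

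**Figure D4:**
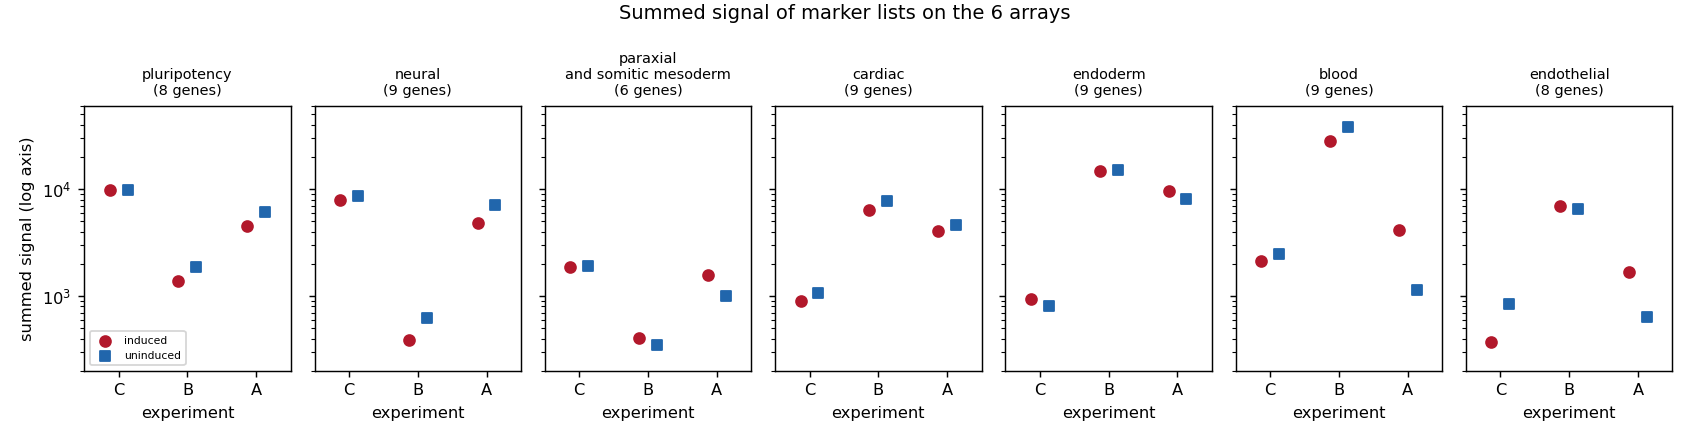
Summed signal (log axis) of 7 marker lists in experiments C, B and A, with a circle for the induced and a square for the uninduced array. Neural and pluripotency sums are lowest in B and highest in C, and cardiac and endoderm sums are lowest in C.

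The genes whose signals ran most like those of the members over the 6 arrays were found by Pearson's r of the log2 values, given as a description since the 6 arrays come in 3 pairs. For Crabp2 they were Tpbg, Sox21 and Cdca7, at 0.998, 0.998 and 0.997. Sox21 encodes a transcription factor of neural progenitors. For Crabp1 they were Eif2s3x, Zfp213 and Msra (0.995, 0.994 and 0.992), and for Rarb they were Aspg, Mttp, which encodes a lipid transfer protein of endoderm, and Gm4924 (0.995, 0.985 and 0.984). For Cyp26a1 they were Rbm48, Slc4a1ap and Clu (0.99, 0.988 and 0.986), for Stra6 Zfp623, Hpcal1 and Rogdi, and for Aldh1a2 Hnrnpr, Pitrm1 and Efcab7. For Rara they were Trabd, Spink8 and Tug1, for Dhrs3 Stard4, Rilpl1 and Mdfic, and for the brighter probe set of Rarg Zfp160, Atl1 and Pgrmc1. The closest gene reached 0.977 or more for every member, out of 12452 genes.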

How the data were processed

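What was deposited by the authors is a linear intensity for each probe set on each of 6 arrays, made with MAS5 according to the submitters' processing notes, which name no version here. All values exceeded 0, and after trimming 2% off each end the mean was 500 on every array; nothing further was normalized. Control probe sets (64) stayed out of testing. The scale was log2(signal + 18.8), with the 20th percentile of all values as the offset, and a mean signal under the 40th percentile barred a probe set from testing (27022 of 45037 tested). GEO's platform annotation gave 34945 probe sets exactly 1 gene, 932 several and 9160 none, and 34754 symbols were brought up to date by Entrez ID from a RefSeq table.

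Testing used limma 3.58.1 in R 4.3.3, two-sided, with empirical Bayes moderation along an intensity trend and Benjamini-Hochberg adjustment over every tested probe set, and the code was tested on simulated data. Induced and uninduced arrays were compared without the experiment letter. Experiments were compared in a model with doxycycline, by an F test and 3 contrasts, each adjusted on its own. The labels give the letters A, B and C in both groups. Same-letter arrays deviated together from their group means (correlations of 0.45, 0.67 and 0.66), so the letters were taken as pairs. Only 6 arrays set the precision. The named genes are all members, up to 3 genes of each list with the smallest p in either fit, the 3 genes most like each member, and Hoxb4; Rxrb and Apoa1 fall outside that rule and were picked after their values were seen. The members and lists were chosen with earlier results of these data known. The alternatives tried are listed in the closing section. The sum without Ttr, the block for Hoxb4 and the other offsets for Cyp26b1 were chosen after seeing the data.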

Additional observations from a re-analysis of the deposited data

How the results depend on the processing

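The alternatives were offsets of 1 and 50, no filter, a filter at the 60th percentile, quantile normalization, moderation without the intensity trend, the replicate block, no doxycycline term, the mean over a gene's probe sets, and leaving out arrays singly or by experiment. No alternative called a retinoic acid probe set or any other for induced against uninduced embryoid bodies; with the replicate block the counts were 0 and 0. Aside from leaving out arrays, 416 of 459 values kept their direction and their side of the threshold (counts within 1.5 times), and none reversed. With all 6 arrays, the filters, intensity trend, doxycycline term and replicate block leave each fold change as it was, so they could reverse none. With offsets of 1 and 50 the F test called 4 and 5 members and C over B 4 and 5; quantile normalization gave 5 and 6, and no doxycycline term 6 and 5. The mean over probe sets moved blood markers called for C over B to 5, and F calls to 5 for pluripotency markers and 3 for coregulators. Without the intensity trend the F test called 1186 probe sets, C over B 750 higher and 936 lower, C over A 49 and 125 with 0 members, and B over A 42 and 34 with 0 members. Without a filter C over A gave 355 higher and 734 lower and B over A 319 lower, with 1 member. At the 60th percentile, which tests 7 of the 10 members, 3 members were called by the F test, 2 for C over B and 1 for B over A. With arrays left out, which unbalances the experiments, counts ranged from 1502 to 13806 (F; members 3 to 10), 411 to 4402 higher and 562 to 3759 lower (C over B; members 3 to 8; 4448 and 3731 without both arrays of A), 47 to 4573 and 217 to 5136 (C over A; 2 to 6), and 59 to 4261 and 80 to 5001 (B over A; 1 to 6); the highest F, C over A and B over A counts came without the induced array of A. No called member reversed. Estimates that changed sign ranged, with arrays left out singly, for induced over uninduced, from -0.49 to 1.76 for Crabp1, -0.53 to 1.46 for Crabp2, -1.19 to 0.71 for Cyp26a1 (0.18 without C), -0.52 to 0.45 for Rarb (-0.22 without C), -0.21 to 0.24 for the brighter Rarg probe set (-0.28 without B), -0.32 to 0.62 for the dimmer one (-0.25 without A), and -0.12 to 1.65 for Stra6. For B over A they ranged from -0.59 to 0.73 for Crabp1, -0.58 to 0.047 for Rarb and -0.42 to 0.50 for Rarg. For C over A they ranged from -1.73 to 1.26 for Aldh1a2 and -0.85 to 0.025 for Rarg, and for C over B from -0.037 to 2.95 for Aldh1a2, -0.11 to 0.53 for Rara and -0.91 to 0.0074 for Rarg. The causes were not tested.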
